A study of Homo sapiens with 24 samples.

Results

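The 616 genes described here lie on human chromosome 12 and were measured by Cap Analysis of Gene Expression sequencing (CAGE-Seq), which counts tags from the capped 5′ ends of transcripts, in 4 glioblastoma cell lines. They were chosen by position and by measured level: a gene had to lie on chromosome 12 of hg38 and to reach 5 CPM (tags of a gene relative to all tags on genes of the library, scaled to 1 common total) in at least 1 of the 24 libraries. Of 43037 genes in the deposited table, 2015 lay on chromosome 12, 652 of them reached 5 CPM, and 36 were set aside by symbol (HOX, COL, ITG, RPL, RPS, PSM, COPS, NDUF and COX families, and MDM2, CDK4, CCND2 and other single genes), which left 616 members among 12327 genes of the genome at the same threshold. The short arm held 141 members and the long arm 475. By type, 571 were protein-coding genes, 33 long non-coding RNAs, and 12 pseudogenes or small RNAs. At the edge of the threshold, LGR5 and THAP2 entered with highest values of 5.02 and 5.20 CPM, and RBMS2P1 and FAM66C stayed outside with 4.95 CPM each. In all 24 libraries 297 members reached 5 CPM, whereas 20 reached it in a single library. For the 29 members that reached it only in libraries of 1 group, a difference of that group was built into their selection. They include LUM and DCN (“WWOX” of U87MG), CABP1 (“Vec” of U87MG), and RIMBP2 (“Vec” of DBTRG-05MG), which are named below.

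The lines were U87MG, T98G, U251MG, and DBTRG-05MG, all used as models of glioblastoma. The study's text notes that the patient behind its U87MG line is not known, although its origin in the nervous system is. Each line carried either a puromycin-resistance lentivirus without insert (“Vec”, the control) or a lentivirus that overexpressed WWOX from a CMV promoter, with GFP and puromycin resistance on the same vector (“WWOX”), as 3 biological replicates per variant. Both variants were stable transductants selected with puromycin, and the study's methods describe that selection as clonal, so an effect of WWOX and one of the selected transductants cannot be told apart. T98G grew in MEM, U87MG and U251MG in EMEM, and DBTRG-05MG in RPMI, so DBTRG-05MG or T98G cannot be told apart from its medium in a comparison between lines. WWOX is a tumor suppressor on chromosome 16, and the study asked how its overexpression changes transcription in each line and where DBTRG-05MG departs from the others.

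Chromosome 12 is a recurrent site of change in glioblastoma. The stretch of the long arm that holds CDK4 and MDM2 is amplified in a part of these tumors, and the long arm also carries the HOXC cluster, many keratin genes, and several cell-cycle genes. In CAGE the tags of a gene come from its transcription starts, so a value sums the promoters assigned to that gene. Copy number was not measured here, and only transcript levels are described.

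The 4 promoter windows printed here (250 bases before to 50 after the RefSeq start, GRCh38.p14, on the strand of the gene) belong to members that rose or fell most in a line among those that passed the test without overlap between the variants, since the results return to them. Capitals mark CCAAT (with its reverse complement ATTGG) and GGGCGG (with CCGCCC). The window of LINC02381, a long non-coding RNA beside the HOXC cluster, is chr12:54125821-54126120 on the plus strand. That of CABP1, a neuronal calcium-binding protein, is chr12:120640376-120640675 on the plus strand. The windows of PHLDA1, which encodes a pleckstrin homology-like protein, and of RIMBP2, a presynaptic scaffold gene, are chr12:76031727-76032026 and chr12:130715524-130715823, both on the minus strand.
LINC02381: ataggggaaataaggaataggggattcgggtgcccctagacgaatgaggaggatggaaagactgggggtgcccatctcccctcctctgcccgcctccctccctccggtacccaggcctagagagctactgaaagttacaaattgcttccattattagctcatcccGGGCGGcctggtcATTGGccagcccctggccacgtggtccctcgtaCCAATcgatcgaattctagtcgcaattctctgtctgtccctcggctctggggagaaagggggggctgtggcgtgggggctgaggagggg
CABP1: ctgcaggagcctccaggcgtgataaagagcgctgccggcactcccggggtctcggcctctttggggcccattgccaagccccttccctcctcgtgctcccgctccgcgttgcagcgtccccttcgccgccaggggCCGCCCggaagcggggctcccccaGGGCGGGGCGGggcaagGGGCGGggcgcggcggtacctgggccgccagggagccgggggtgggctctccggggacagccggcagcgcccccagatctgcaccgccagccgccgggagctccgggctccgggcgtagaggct
PHLDA1: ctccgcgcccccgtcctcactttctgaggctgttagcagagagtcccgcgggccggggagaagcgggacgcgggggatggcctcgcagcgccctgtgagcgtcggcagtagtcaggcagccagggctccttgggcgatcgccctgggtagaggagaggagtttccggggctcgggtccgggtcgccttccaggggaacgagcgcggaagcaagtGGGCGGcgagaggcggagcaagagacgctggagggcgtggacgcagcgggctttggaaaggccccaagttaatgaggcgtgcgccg
RIMBP2: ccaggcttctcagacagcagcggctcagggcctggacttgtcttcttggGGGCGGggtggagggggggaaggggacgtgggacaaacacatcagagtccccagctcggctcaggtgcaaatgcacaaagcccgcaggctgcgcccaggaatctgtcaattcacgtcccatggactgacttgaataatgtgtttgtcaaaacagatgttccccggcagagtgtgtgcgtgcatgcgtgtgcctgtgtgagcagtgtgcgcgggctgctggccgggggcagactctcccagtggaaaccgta

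The CABP1 window held 4 GGGCGG matches, 32 CG dinucleotides, and 76.7% G and C. The LINC02381 window held 2 CCAAT matches, 1 GGGCGG match, 13 CG dinucleotides, and 59.3% G and C. The windows of PHLDA1 and RIMBP2 held 1 GGGCGG match each, with 32 and 14 CG dinucleotides. Neither TATAAA nor TGANTCA, searched on both strands, was found in these 4 windows. RefSeq windows were matched by symbol for 467 of the 616 members. GGGCGG was present in 77.3% of them, against 71.0% of the 9744 windows of all genes at the threshold and 44.6% of all 27305 windows in the table. CCAAT was present in 34.7% of the members' windows (36.8% of genes at the threshold and 35.7% of all windows), TATAAA in 4.1% (5.7% and 12%), and TGANTCA in 4.5% (4.8% and 7.8%). The median window of the members had 64.7% G and C and 26 CG dinucleotides, close to the 65.7% and 27 of all genes at the threshold. The motif shares of chromosome 12 were thus near those of other expressed genes.

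The libraries held 10756072 to 16953689 tags on genes. Of 7 glial and mesenchymal markers, 2 to 6 exceeded 5 CPM per library, and PTPRC, PECAM1, and EPCAM (leukocyte, endothelial, and epithelial markers) stayed under 1 CPM in every library. VIM and CD44 exceeded 5 CPM in every library, NES and SOX2 only in U251MG and DBTRG-05MG, and OLIG2 in none. GFAP and S100B exceeded it in all libraries of U251MG but of no other line. WWOX averaged 37.9 CPM in “Vec” and 62.7 CPM in “WWOX” of U87MG, 43.4 and 55.6 CPM in T98G, 33.5 and 37.4 CPM in U251MG, and 21.3 and 29.4 CPM in DBTRG-05MG, and passed the test in none (adjusted p from 0.14 to 1). The study's methods state that Western blot on extracted protein established the efficiency of transduction, which these transcript values do not measure. Whether tags from vector transcripts were counted for WWOX is not given in the study's text. Among the “WWOX” libraries of U251MG the WWOX level ranged from 17.4 to 56.7 CPM, with the lowest value, under that of every “Vec” library of the line, in replicate 2. That library and “Vec” replicate 2 of T98G stood apart from their groups in how many members passed the test without them, and the counts of members called, or without overlap, in these lines are given with and without them.

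The level of the chromosome was taken in each library as the median, over the members, of the log2 level of a gene against its own mean of the 24 libraries, minus the same median over all 12327 genes. It is thus a log2 difference from other genes and not an expression level. DBTRG-05MG was highest and U251MG lowest. In DBTRG-05MG the “Vec” libraries lay at 0.26, 0.32, and 0.32, and the “WWOX” libraries at 0.14, 0.06, and 0.05, without overlap. U251MG lay at −0.37 to −0.32 in “Vec” and at −0.28, −0.42, and −0.27 in “WWOX”, where the lowest library was replicate 2. U87MG stood between 0.08 and 0.14 in “Vec” and between 0.10 and 0.14 in “WWOX”, and T98G between −0.04 and 0.06 in “Vec” and between 0.01 and 0.05 in “WWOX”. The order of the “Vec” means was DBTRG-05MG (0.30), U87MG (0.10), T98G (close to zero), and U251MG (−0.34), and the libraries of neighboring lines in this order did not overlap. As a share of all tags, members made up 4.09% ± 0.15 in “Vec” and 3.51% ± 0.15 in “WWOX” of DBTRG-05MG (SD, n = 3), and 2.36% ± 0.05 in “Vec” of U251MG. Fewer cells with a given transcript and less of it per cell cannot be told apart in these bulk libraries.

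**Figure D1:**
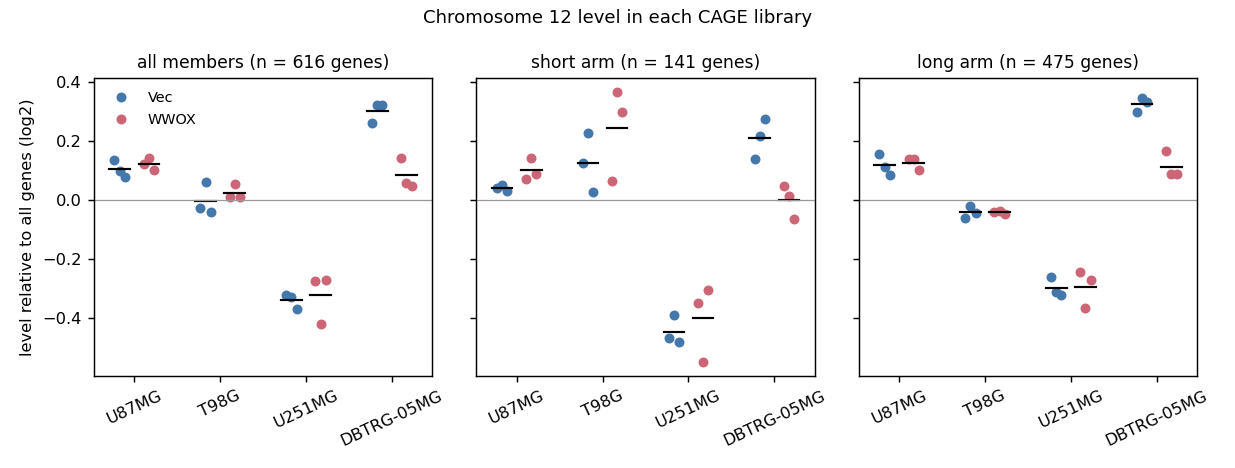
Level of chromosome 12 in each CAGE library (log2, members' median minus the median of all genes) for all 616 members, the 141 of the short arm, and the 475 of the long arm. Points are libraries and bars the means of 3. DBTRG-05MG “WWOX” lies below its “Vec” in all panels, and U251MG lies lowest.

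WWOX overexpression in DBTRG-05MG was accompanied by a small downward shift of the chromosome 12 members as a set. The variants stood apart in some stretches of the chromosome and overlapped in others. The median log2FC of the members was −0.20 relative to all genes, a change of −12.8%, with an interquartile range from −0.42 to 0.02. Of the 616 members, 453 (73.5%) lay below the all-gene median. Among the 23 chromosomes this median was the second lowest, after that of chromosome 9 (−0.20 over 505 genes). No p is given for values over the set, since its members were chosen with such results known. All 3 “WWOX” libraries lay below all 3 “Vec” libraries in 137 members (22.2%, against 10.3% of all genes tested) and above them in 17 (2.76%, against 9.46%). On the CPM as deposited, which were not rescaled between libraries, these counts were 105 and 21, against 8.35% and 10.9% of all genes. In the other lines the members followed the rest of the genome: the median was 0.01 in U87MG and T98G and 0.00 in U251MG. Libraries without overlap were higher in 42 members (6.82%) of U87MG, 54 (8.77%) of T98G, and 31 (5.03%) of U251MG, where all genes gave 7.74%, 7%, and 5.43%. They were lower in 42 (6.82%), 48 (7.79%), and 29 (4.71%), where all genes gave 9.77%, 9.21%, and 5.01%. With “Vec” replicate 2 of T98G left out these shares rose for all genes too, to 18.9% higher and 24.6% lower, and 120 members (19.5%) were higher and 134 (21.8%) lower. With “WWOX” replicate 2 of U251MG left out 107 (17.4%) were higher and 89 (14.4%) lower, against 18.7% and 17.4%.

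The shift in DBTRG-05MG was uneven along the chromosome. On the long arm (median −0.22, 112 of 475 members lower without overlap) it was largest in the distal stretches: the median was −0.31 between 110 and 120 Mb, −0.29 between 120 and 130 Mb, and −0.27 beyond 130 Mb. Between 110 and 120 Mb, 93.9% of 49 members lay below the all-gene median, and the level of this stretch was 0.31, 0.39, and 0.37 in “Vec” against 0.01, −0.16, and −0.05 in “WWOX”. Beyond 130 Mb the 24 members gave 0.26, 0.29, and 0.10 in “Vec” and −0.20, −0.27, and −0.14 in “WWOX”. The first 10 Mb of the short arm (66 members) moved alike, with a median of −0.29, “Vec” levels of 0.07, 0.07, and 0.06, and “WWOX” levels of −0.35, −0.20, and −0.19. The variants did not overlap in the first 20 Mb, between 40 and 60 Mb, and beyond 110 Mb, and they overlapped in the other stretches. The stretches between 10 and 40 Mb gave medians of −0.04, −0.09, and 0.01, and those between 80 and 100 Mb 0.05 (14 members) and −0.08.

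**Figure D2:**
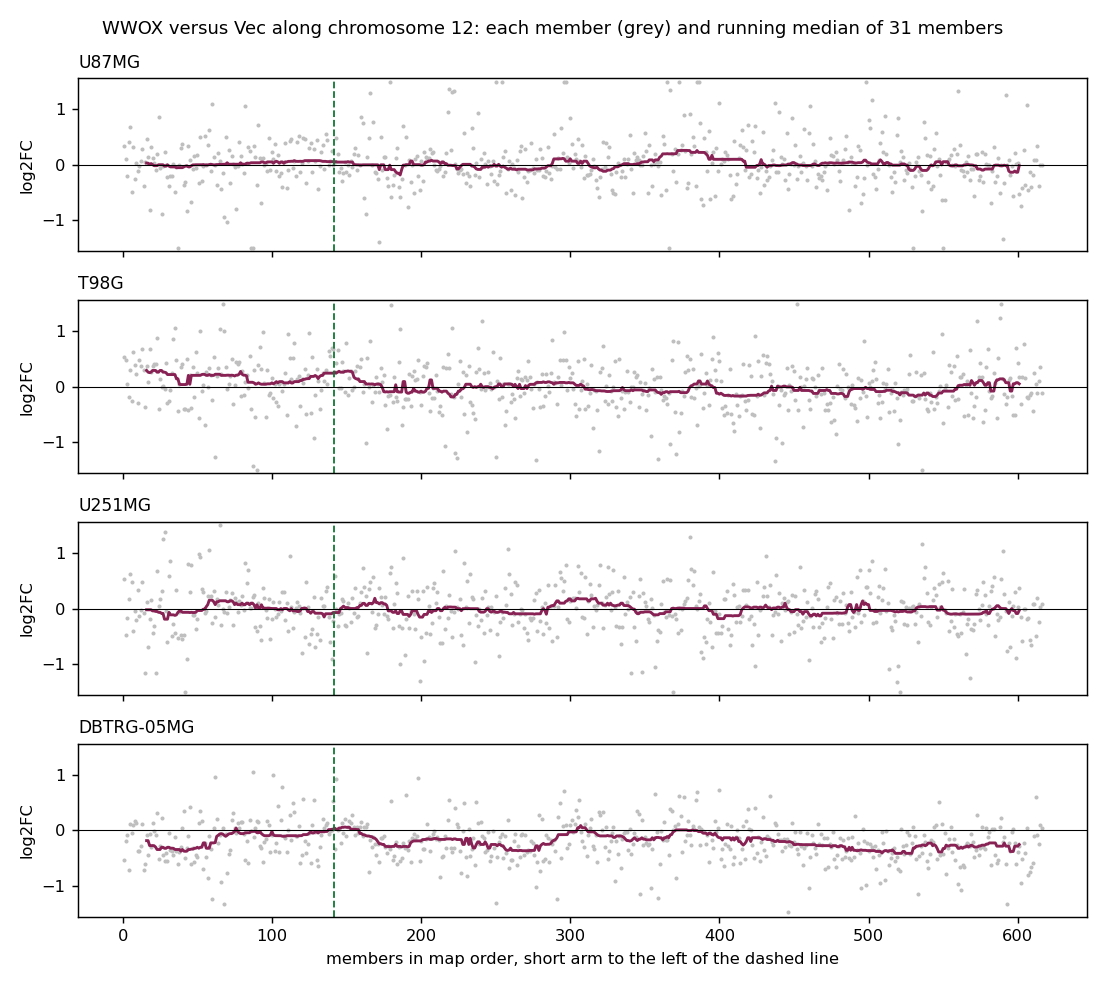
log2FC of “WWOX” versus “Vec”, minus the median of all genes, for the 616 members in map order in each line. Grey points are members (values beyond 1.5 in size are drawn at the edge), and the line is the running median of 31 members. In DBTRG-05MG the line stays below 0 at the start of the short arm and over the last part of the long arm, and in the other lines it stays closer to 0.

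T98G gave a different pattern along the chromosome. Its short arm had a median of 0.19 and its long arm of −0.05, and 22 of the 141 members of the short arm were higher without overlap (15.6%, against 7% of all genes) and 4 lower (2.84%, against 9.21%). Without “Vec” replicate 2 these were 43 (30.5%, against 18.9%) and 15 (10.6%, against 24.6%). The levels of the whole short arm overlapped between the variants (0.13, 0.23, and 0.03 in “Vec”, 0.06, 0.37, and 0.30 in “WWOX”). Within its first 10 Mb they did not overlap, with 0.23, 0.34, and 0.41 in “Vec” and 0.51, 0.52, and 0.61 in “WWOX”, the opposite direction to DBTRG-05MG. The difference between the lines in this stretch was not tested.

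Single members that passed the test (limma, adjusted p under 0.05 over all 12327 genes) were few, and most were found in U87MG. There, 10 members rose (1.62%, against 1.54% of all genes) and 6 fell (0.974%, against 1.66%). In T98G, 2 rose (0.325%, against 0.333%) and 4 fell (0.649%, against 0.803%). In U251MG none rose (0.114% of all genes did) and 1 fell (0.162%, against 0.203%). In DBTRG-05MG none rose (0.519% of all genes did) and 3 fell (0.487%, against 0.503%). The shares called on chromosome 12 were thus near those of the genome, in DBTRG-05MG as well, where the displacement of the set did not come with more called genes. At an unadjusted p under 0.05, DBTRG-05MG gave 4 members higher and 51 lower (481 and 460 of all genes), and U251MG 27 and 30 (739 and 684 of all genes). DESeq2 on the recovered tags called 1 higher and 5 lower in DBTRG-05MG and 4 higher and 1 lower in U251MG, and edgeR called 1 lower in DBTRG-05MG and none in U251MG. The shares of all genes called by DESeq2 and edgeR are not given here, so these counts cannot be read against the genome. In all, 24 members passed in at least 1 line. LINC02381 passed in 3 lines, no other member in more than 1.

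LINC02381 (chr12:54126019-54147485, plus strand, overlapping 2 genes of the opposite strand) went in opposite directions between the lines. In U87MG it stood at 1.14, 1.01, and 1.05 CPM in “Vec” and at 18.2, 18.5, and 13.8 CPM in “WWOX”, the largest rise among the members (log2FC 3.43 ± 0.29 SE, adjusted p = 3.175e-08). In DBTRG-05MG it fell from 9.49, 9.98, and 9.81 CPM to 5.55, 2.66, and 3.56 CPM (log2FC −1.32 ± 0.29, adjusted p = 0.0217). In T98G it was low in both variants and fell further, from 1.48, 1.002, and 1.95 CPM to 0.65, 0.22, and 0.13 CPM (log2FC −1.31 ± 0.29, adjusted p = 0.0248). U251MG held 10.7 to 15.7 CPM in “Vec” and 14.6 to 17.3 CPM in “WWOX”, which overlapped. The libraries did not overlap in any of the 3 lines with a call. In T98G the call was lost with a pseudocount of 1 and when T98G was fitted by itself. In DBTRG-05MG it was lost with a pseudocount of 0.1, when the line was fitted by itself, and with edgeR. It was also lost without any 1 of “Vec” replicates 1 and 3 and “WWOX” replicates 2 and 3 in T98G, and without any 1 library other than “WWOX” replicate 1 in DBTRG-05MG. In U87MG it held in all alternatives and with any 1 library left out.

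**Figure D3:**
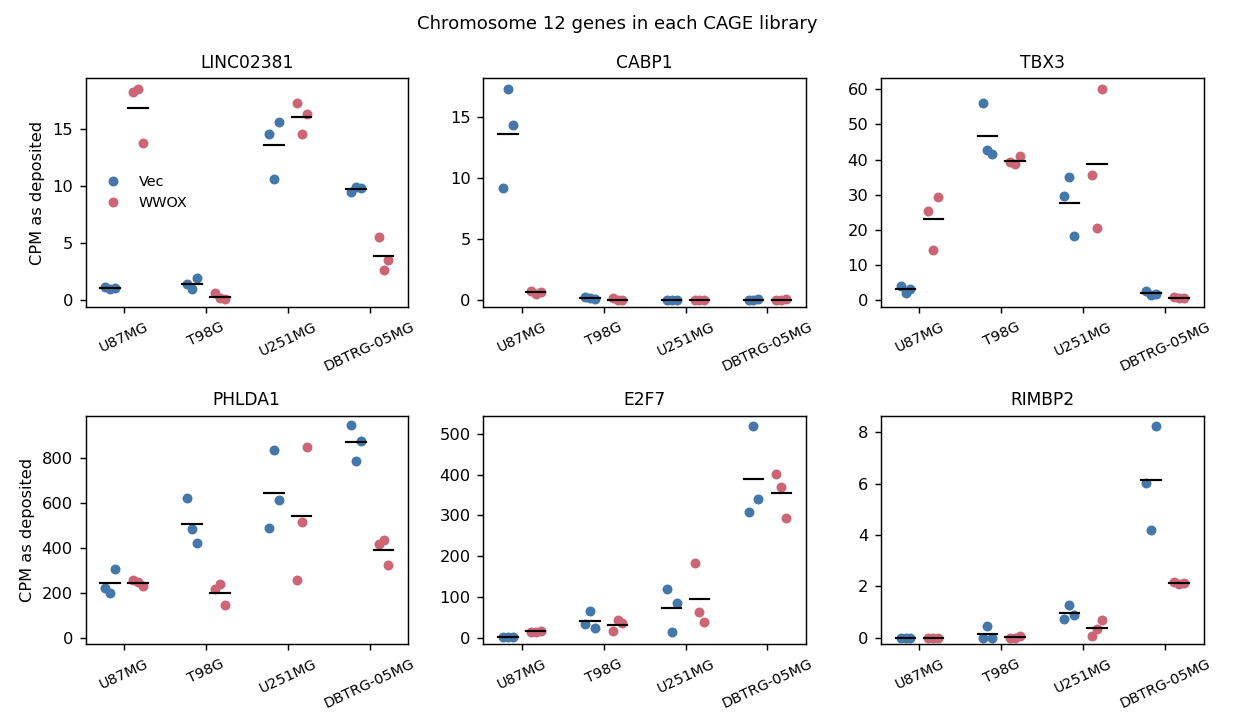
CPM as deposited of 6 members in the 24 libraries, with “Vec” and “WWOX” side by side in each line. Points are libraries and bars the means of 3. LINC02381 is higher in “WWOX” of U87MG and lower in “WWOX” of T98G and DBTRG-05MG, and CABP1 is above 1 CPM in “Vec” of U87MG alone.

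The other members that rose in U87MG included 2 matrix proteoglycans, a secreted ligand subunit, and 2 transcription factors. INHBE (chr12:57452323-57459280), which encodes a subunit of a secreted TGF-β family ligand, rose from 7.46, 1.16, and 1.33 CPM to 16, 28.7, and 30.3 CPM (log2FC 3.05 ± 0.65, adjusted p = 0.00666). LUM (chr12:91102629-91111494), the matrix proteoglycan lumican, rose from 0.21, 0.08, and 0.28 CPM to 15.1, 3.73, and 1.36 CPM (log2FC 2.88 ± 0.48, adjusted p = 0.000512). Its “WWOX” libraries spread over a wide range, each above every “Vec” library. DCN, the related and neighboring gene of decorin, rose with more overlap, from 1.56, 1.16, and 0.77 CPM to 11.4, 5.16, and 1.10 CPM (log2FC 1.50, adjusted p = 0.0469), and lost its call in 7 of 11 alternatives. LUM and DCN reached the threshold of 5 CPM only in “WWOX” libraries of U87MG, so their rise is partly a matter of selection. E2F7 (chr12:77021248-77065569), an E2F-family repressor of cell-cycle genes, rose from 1.78, 1.47, and 2.67 CPM to 15.1, 14.4, and 16.7 CPM (log2FC 2.68 ± 0.59, adjusted p = 0.00944). TBX3 (chr12:114670255-114684175), a T-box transcription factor, rose from 4.12, 2.16, and 3.23 CPM to 25.5, 14.4, and 29.5 CPM (log2FC 2.61 ± 0.31, adjusted p = 4.35e-06). In every one of these genes except DCN the 2 variants stood apart without overlap. Further members that rose were the amino acid transporter SLC6A15 (1.51), the clathrin and actin adaptor HIP1R (1.33), the heme transporter SLC48A1 (1.29), and the pro-apoptotic HRK (1.17), each with its log2FC in parentheses. For SLC6A15 the libraries overlapped. Without “Vec” replicate 2 of U87MG the calls of INHBE, E2F7, HIP1R, SLC48A1, SLC6A15, and DCN were lost, and without “Vec” replicate 3 those of INHBE, SLC48A1, SLC6A15, and DCN. In all, DCN lost its call in 20 and SLC48A1 in 9 of the 24 fits with 1 library left out. When U87MG was fitted by itself, the calls of INHBE, LUM, DCN, SLC6A15, HIP1R, and SLC48A1 were lost. With limma-voom those of E2F7 and DCN were lost. SLC48A1 lost its call in 4 of 12 alternatives, and TBX3 kept its own in all of them.

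CABP1 (chr12:120640626-120667324) fell most in U87MG, from 9.23, 17.3, and 14.4 CPM to 0.73, 0.54, and 0.68 CPM (log2FC −3.66 ± 0.22, adjusted p = 1.777e-10). It kept its call in all alternatives. In the other lines CABP1 did not exceed 0.28 CPM in any library, so U87MG “Vec” alone carried it. CABP1 became a member through these “Vec” libraries only, so its fall is partly a matter of selection. BCL7A (chr12:122019422-122062044), a subunit of the BAF chromatin-remodeling complex, fell from 7.74, 7.42, and 8.28 CPM to 0.73, 0.41, and 1.10 CPM (log2FC −2.85 ± 0.27, adjusted p = 1.817e-07), also in all alternatives. H2AJ (chr12:14774405-14778002), a histone H2A variant whose tags may be shared with related histone genes, fell from 314, 301, and 226 CPM to 70.9, 87.6, and 67.1 CPM (log2FC −1.95 ± 0.52, adjusted p = 0.0365). In DBTRG-05MG the same gene stood at 138, 153, and 96.3 CPM in “Vec” and at 263, 253, and 319 CPM in “WWOX”, without overlap and without passing the test (log2FC 1.06, adjusted p = 0.66). NAV3, a microtubule-binding navigator protein, fell from 3.76, 5.95, and 8.77 CPM to 1.41, 1.22, and 2.2 CPM (log2FC −1.68 ± 0.43, adjusted p = 0.0295). PIANP, a neural membrane protein, fell from 4.62, 4.95, and 4.14 CPM to 1.59, 0.68, and 1.78 CPM (log2FC −1.58 ± 0.31, adjusted p = 0.00275), and CCDC184 had a log2FC of −1.40 (adjusted p = 0.0106). H2AJ lost its call in 4 of 12 alternatives and without any 1 of the 6 libraries of U87MG. PIANP lost its call when U87MG was fitted by itself. NAV3 lost it in 5 of 11 alternatives and without any 1 of “Vec” replicates 2 and 3 and “WWOX” replicates 1 and 2. Without “Vec” replicate 2 of U87MG, 6 members passed in this line, and without “Vec” replicate 3, 10.

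In T98G the 2 rises were LINC00944 (chr12:126729787-126772519) and OLR1. LINC00944, a long non-coding RNA, rose from 0.56, 0.50, and 0.31 CPM to 3.16, 1.71, and 4.29 CPM (log2FC 1.87 ± 0.30, adjusted p = 0.00145), without overlap. OLR1, the receptor of oxidized low-density lipoprotein, stood at 5.41, 24.4, and 5.53 CPM in “Vec” and at 20.3, 32.2, and 42.5 CPM in “WWOX” (log2FC 1.69 ± 0.34, adjusted p = 0.0128), with overlap through “Vec” replicate 2. PHLDA1 (chr12:76025447-76031776) fell from 621, 486, and 421 CPM to 216, 239, and 148 CPM (log2FC −1.35 ± 0.32, adjusted p = 0.0392). ACSS3, a mitochondrial acyl-CoA synthetase gene, fell from 0.98, 0.94, and 0.31 CPM to values at or below 1 tag per library, at least 3.2-fold lower against a floor of 3 tags per library (adjusted p = 0.00921). COQ10A, which encodes a coenzyme Q-binding mitochondrial protein, fell as well (log2FC −1.36 ± 0.32, adjusted p = 0.0374), with overlap. Without “Vec” replicate 2, 6 members rose and 13 fell in T98G, 1 passed without “Vec” replicate 1, and 2 without “WWOX” replicate 3. Without “Vec” replicate 2 the share of all genes without overlap rose as well, from 7% to 18.9% higher and from 9.21% to 24.6% lower. Leaving out a library can only raise such a share. The share of all genes that passed the test without this library is not given here, so the higher count cannot be read against the genome. PHLDA1 lost its call in 14 of the 24 fits with 1 library left out and in 4 of 12 alternatives, and ACSS3 in 3 of 12 alternatives and without “Vec” replicate 1. OLR1 lost its call in 4 of 12 alternatives and without “Vec” replicate 1 or 3 or “WWOX” replicate 3. LINC00944 lost its call when T98G was fitted by itself.

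In U251MG only MSI1, a Musashi RNA-binding protein of neural progenitors, passed the test. It stood at 9.16, 5.65, and 10.4 CPM in “Vec” and at 1.44, 4.22, and 2.16 CPM in “WWOX” (log2FC −1.56 ± 0.34, adjusted p = 0.0459). These values do not overlap on the CPM as deposited, and they do after scaling. The call was lost in most fits with 1 library left out, libraries of the other lines included. Without “WWOX” replicate 2 of this line, 8 members rose and 14 fell, and the median of the members relative to all genes was 0.04 instead of 0.00. Without this library the share of all genes without overlap rose as well, from 5.43% to 18.7% higher and from 5.01% to 17.4% lower. Such a share can only rise when a library is left out. How many of all genes passed the test without it is not given here, so the higher count cannot be read against the genome.

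In DBTRG-05MG the members that fell besides LINC02381 were RIMBP2 and TMEM52B. RIMBP2 became a member only through “Vec” libraries of this line, so its fall is partly a matter of selection. RIMBP2 (chr12:130396133-130768228) fell from 6.02, 4.19, and 8.23 CPM to 2.18, 2.07, and 2.13 CPM (log2FC −1.33 ± 0.26, adjusted p = 0.00691), and lost its call with a pseudocount of 0.1, in a model of the line alone, and with edgeR, limma-voom, and DESeq2, as well as without “Vec” replicate 3. TMEM52B, a transmembrane protein gene, fell from 0.72, 1.35, and 0.72 CPM to at most 1 tag per library, at least 4.85-fold lower against a floor of 3 tags per library (adjusted p = 0.0212). Its call was lost with a pseudocount of 1, in a model of the line alone, and without any 1 library of the line other than “Vec” replicate 3. It overlaps OLR1, which lies on the opposite strand. Without “Vec” replicate 1 or 3 or “WWOX” replicate 2 or 3 of this line 1 member passed, and without “WWOX” replicate 1 of U251MG 6 passed. PHLDA1 stood at 950, 790, and 877 CPM in “Vec” and at 418, 437, and 325 CPM in “WWOX”, without overlap, and did not pass the test (log2FC −1.22 ± 0.32, adjusted p = 0.08). Among the most abundant members, KRT18 (keratin 18) stood at 1260, 946, and 905 CPM in “Vec” and at 490, 688, and 732 CPM in “WWOX” (log2FC −0.77, adjusted p = 0.82), and the tetraspanin gene CD63 at 3785, 3264, and 3721 CPM against 1586, 2932, and 2819 CPM (log2FC −0.67, adjusted p = 0.87). IGFBP6, a secreted binding protein of insulin-like growth factors, stood at 1174, 839, and 856 CPM and at 402, 599, and 714 CPM (log2FC −0.83, adjusted p = 0.79). Citrate synthase (CS) stood at 186, 165, and 174 CPM and at 126, 128, and 116 CPM (log2FC −0.57, adjusted p = 0.28). These genes were picked after their values had been seen, as examples of members that were lower without overlap and did not pass the test. Other members went the other way. MFAP5, picked in the same manner, stood at 263, 279, and 264 CPM in “Vec” and at 593.3, 571.5, and 498.5 CPM in “WWOX”, without overlap and without passing the test.

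The test of the DBTRG-05MG effect against the mean effect of the other lines passed for 3 members: 1 higher (0.162%, against 0.576% of all genes) and 2 lower (0.325%, against 0.406%). LINC02381 differed by −2.10 ± 0.33 (adjusted p = 0.000948) and TBX3 by −1.90 ± 0.35 (adjusted p = 0.00509). The call of TBX3 was lost with limma-voom. CABP1 differed by 1.37 ± 0.25 (adjusted p = 0.00509), with a log2FC of 0.07 in DBTRG-05MG and of −3.66 in U87MG, and lost this call in 5 of 10 alternatives. Without “Vec” replicate 2 of T98G, 6 members passed this test. In DBTRG-05MG itself TBX3 stood at 2.75, 1.48, and 1.91 CPM in “Vec” and at 1.06, 0.58, and 0.75 CPM in “WWOX” (log2FC −0.98 ± 0.31, adjusted p = 0.22), against the rise in U87MG. The median difference of the members was −0.22 relative to all genes, the lowest of the 23 chromosomes, and 465 members (75.5%) lay below the all-gene median. Chromosomes 5, 8, and 9 followed closely, at −0.18, −0.18, and −0.17. This contrast shares the DBTRG-05MG libraries with the values above.

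Among the functional groups of members, cell-cycle and DNA replication genes lay lowest in DBTRG-05MG, at a median of −0.50 on the log2FC scale after subtraction of the all-gene median. Of 31 members of this group 28 lay below the all-gene median and 11 were lower without overlap, where all members gave 22.2% and all genes 10.3%, and none passed the test. As examples picked after their values had been seen, TIMELESS, a replication fork protein, stood at 27.4, 23.8, and 40.8 CPM in “Vec” and at 19.1, 21.7, and 22.8 CPM in “WWOX”. RFC5, a clamp loader subunit, stood at 38.3, 38.1, and 45.8 CPM and at 33.2, 21.8, and 24.4 CPM, and NCAPD2, a condensin subunit, at 45.6, 40.3, and 54.9 CPM and at 35.5, 32.7, and 31.1 CPM. The medians of the same group in the other lines were −0.25 in U251MG, −0.20 in T98G, and −0.13 in U87MG, and CDKN1B, the cell-cycle inhibitor p27, had log2FC of 0.0047, 0.23, 0.22, and 0.15 in the 4 lines. Metabolism and solute transport followed in DBTRG-05MG (median −0.31, 32 of 41 below the all-gene median, 13 lower without overlap and 1 higher), then protein folding, ubiquitin, and membrane trafficking (−0.23, 30 of 35, 11 lower) and RNA processing and translation (−0.21, 37 of 45, 12 lower). The cytoskeletal genes (−0.20, 20 of 32), chromatin and transcription genes (−0.18, 33 of 42), and immune and cytokine receptor genes (−0.17, 10 of 16) lay close to the −0.20 of all members. Neighbors of CDK4 and MDM2 on the long arm (−0.08, 24 of 35), secreted and matrix genes (−0.08, 14 of 24), and growth factor and RAS signaling genes (−0.11, 13 of 24) lay nearer to 0. None of the 10 groups had a called member in DBTRG-05MG or U251MG.

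**Figure D4:**
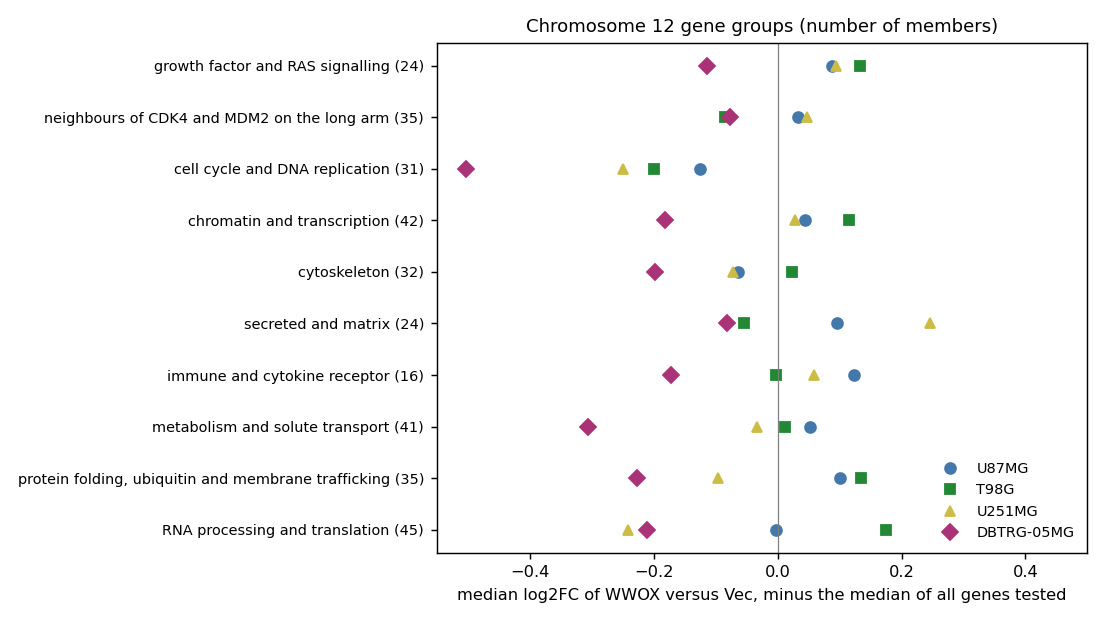
Median log2FC of “WWOX” versus “Vec”, minus the median of all genes, for 10 groups of chromosome 12 members in each line, with the number of members in parentheses. DBTRG-05MG is lowest for cell-cycle and DNA replication genes (−0.50), and its 10 medians all lie below 0.

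In U87MG, where 1.54% of all genes passed as higher and 1.66% as lower, the secreted and matrix group had 4 called members of 24, all higher (INHBE, LUM, DCN, and SLC6A15, a transporter that the list also held). DCN and SLC6A15 overlapped between the variants and lost their calls in 7 of 11 and 5 of 12 alternatives. LUM and DCN became members only through “WWOX” libraries of U87MG, so their calls are partly built into the selection. Metabolism and solute transport had 2 higher of 41 (SLC6A15 and SLC48A1), chromatin and transcription 1 higher and 1 lower of 42 (TBX3 and BCL7A), and protein folding, ubiquitin, and membrane trafficking 1 of 35 (HIP1R). In T98G the immune and cytokine receptor group had 1 called member of 16 (OLR1), where 0.333% of all genes passed as higher. The medians of the secreted and matrix group were 0.25 in U251MG, 0.10 in U87MG, and −0.05 in T98G. RNA processing and translation genes had medians of 0.18 in T98G (31 of 45 above the all-gene median) and −0.24 in U251MG (38 of 45 below), and no member passed in either line. ARF3, a small GTPase of membrane trafficking, had log2FC of −0.37, −0.33, −0.36, and −0.54 in U87MG, T98G, U251MG, and DBTRG-05MG, with adjusted p from 0.59 to 0.699. Its libraries did not overlap in U87MG and DBTRG-05MG, where it averaged 210 ± 22 CPM in “Vec” and 151 ± 7 CPM in “WWOX” (SD, n = 3). Log2FC below 0 in all 4 lines was found in 80 members and above 0 in 35. The all-gene median was not subtracted for these counts. In a single line the share of all genes below 0 ran from 49.0% (DBTRG-05MG) to 54.1% (T98G). How many of all genes kept 1 sign throughout is not given here, so the 80 and 35 cannot be read against the genome.

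Between the control variants of the lines, chromosome 12 differed in more members than between “Vec” and “WWOX”, with 472 called in at least 1 comparison against 24. This was not particular to chromosome 12. Of all 12327 genes, 4297 to 5554 were called per comparison between lines, and 39 to 395 per comparison of “WWOX” with “Vec”. The 4 comparisons set the “Vec” libraries of a line against those of the other lines, share libraries, and are not independent. DBTRG-05MG had 236 members higher (38.3%, against 22.7% of all genes) and 67 lower (10.9%, against 19.9%), with a median difference of 0.38 relative to all genes, second highest of the 23 chromosomes. U251MG had 39 higher (6.33%, against 16.5%) and 212 lower (34.4%, against 18.4%), with a median of −0.46, second lowest, and 79.9% of the members below the all-gene median. U87MG had 142 higher (23.1%, against 19.9%) and 122 lower (19.8%, against 25.2%), and T98G 106 higher (17.2%, against 20.1%) and 113 lower (18.3%, against 20.4%), with medians of 0.13 and −0.03. With the members at 5 CPM or more in every library, an alternative chosen after the data had been seen, the median was 0.31 in DBTRG-05MG. With the CPM as deposited the median of all genes was 0.18 in DBTRG-05MG, −0.17 in U87MG, and −0.14 in T98G, a shift of 0.15, −0.12, and −0.12 from the scaled values, and the medians above are relative to that of all genes.

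In U251MG the lower level extended over nearly the whole chromosome. The medians of the 10 Mb stretches lay between −0.77 (20 to 30 Mb) and −0.16 (90 to 100 Mb), and only that of 70 to 80 Mb was above 0 (0.06). In DBTRG-05MG the higher level peaked between 70 and 100 Mb, with medians of 1.09 (26 members), 1.26 (14 members), and 1.07 (27 members), where 17, 10, and 18 members passed as higher, against 22.7% of all genes. The first 10 Mb (−0.01) and the stretches beyond 120 Mb (0.13 and 0.10) stayed near the other lines. The “Vec” levels of DBTRG-05MG between 70 and 80 Mb were 0.66, 0.74, and 0.90, above all 9 “Vec” libraries of the other lines, which ranged from −0.63 to 0.13. The “WWOX” levels of DBTRG-05MG in this stretch were 0.74, 1.11, and 0.38 and overlapped its “Vec”. The stretches with the highest level against other lines were thus not those with the largest displacement under WWOX. In U87MG the stretch between 70 and 80 Mb was the lowest (−0.84), and in T98G that between 80 and 90 Mb (−0.76).

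**Figure D5:**
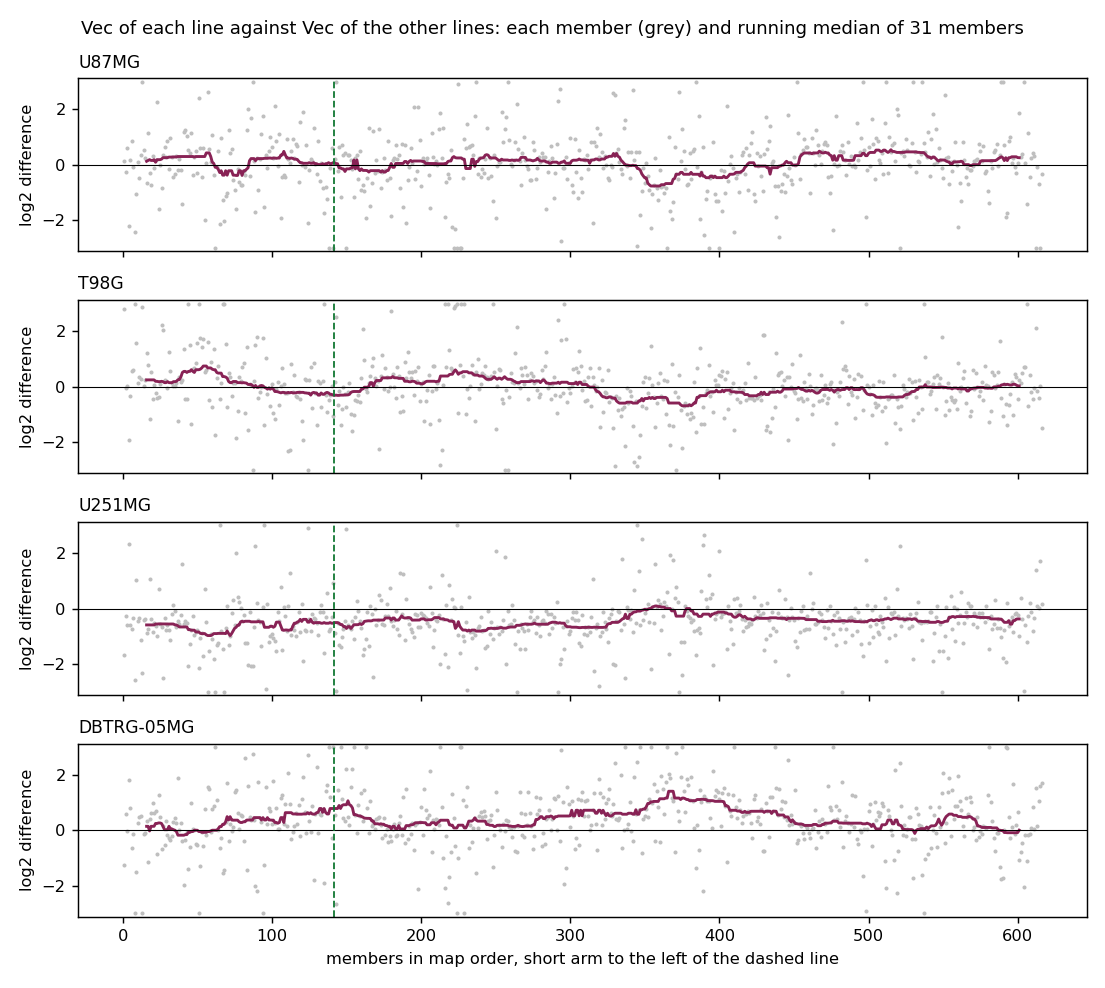
Difference of the “Vec” libraries of each line from those of the other lines (log2, minus the median of all genes) for the 616 members in map order. Grey points are members (values beyond 3 in size are drawn at the edge), and the line is the running median of 31 members. U251MG lies below 0 over nearly the whole chromosome, and DBTRG-05MG peaks in the middle of the long arm.

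Single members distinguished the lines by presence or near absence, and several of them reached the threshold through 1 line, so that their difference is partly a matter of selection. U87MG “Vec” held TMEM233, a transmembrane protein gene, at 28.5, 29.2, and 33.3 CPM, with at most 0.08 CPM elsewhere, and CABP1, LINC02392, and LINC02376 were likewise high (log2 differences of 4.70, 4.65, and 4.57). It lacked KRT18, at 0.07 to 0.31 CPM against 36.1 to 1260 CPM in the other lines (median 259), and PKP2, a desmosomal plakophilin, and CHFR, a mitotic checkpoint ubiquitin ligase, were at 0 tags. CHFR was at least 76.4-fold lower than the mean of the other lines, against a floor of 3 tags per library, and its values elsewhere ranged from 11.5 to 21.4 CPM. PRICKLE1, a planar cell polarity gene, was at least 68.5-fold lower. E2F7 was also low in U87MG “Vec” (1.47 to 2.67 CPM, against 14.1 to 519 CPM), the line in which it rose with WWOX.

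T98G “Vec” was marked by LINC00942 (93, 176, and 219 CPM, at most 0.32 CPM elsewhere), TMEM52B (60.7, 64.7, and 155 CPM, at most 1.35 CPM elsewhere), the receptor gene ACVRL1 (9.90, 43.0, and 43.3 CPM, at most 0.24 CPM elsewhere), and the complement protease gene C1S (166, 198, and 205 CPM, at most 45.2 CPM elsewhere). The pseudogene IFITM3P2 (14.7 to 20.9 CPM) also stood out, with tags that may belong to a related IFITM gene. Lowest in T98G were H2AJ (0.39 to 2.32 CPM), PTHLH, the parathyroid hormone-related peptide (1.01 to 2.88 CPM, median 58.0 CPM elsewhere), RDH5, a retinol dehydrogenase (at least 34-fold lower), ACSS3 (0.31 to 0.98 CPM), and METTL7B (0.06 to 0.84 CPM).

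U251MG “Vec” was highest for LMO3, a LIM-only transcriptional cofactor (7.50, 7.70, and 16.1 CPM, at most 0.20 CPM elsewhere), the protease inhibitor A2M (3.58, 5.69, and 26.1 CPM), NUDT4 (228, 295, and 629 CPM, a gene with a near-identical copy elsewhere), LGR5, an R-spondin receptor (1.19, 3.41, and 5.02 CPM), and LINC02412. STAT6, the transcription factor of interleukin-4 signaling, was nearly absent from U251MG, with at most 0.08 CPM against 21.6 to 41.3 CPM in the other lines, at least 139.9-fold lower. The scavenger receptor CD163L1 (0.24 to 0.57 CPM, against 25.2 to 71.3 CPM) and the mitochondrial aldehyde dehydrogenase ALDH2 (0.89 to 1.35 CPM, against 20.3 to 57.9 CPM) were low, and the metalloproteinase MMP19 and the transporter SLC6A15 were at least 32.6-fold and 25.6-fold lower.

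DBTRG-05MG “Vec” was highest for MFAP5, a microfibril protein of the matrix, at 263, 264, and 279 CPM against at most 2.13 CPM elsewhere (log2 difference 8.47 ± 0.28, adjusted p = 3.426e-16). KRT18 (905, 946, and 1260 CPM, against 0.07 to 363 CPM), PKP2 (50.2, 51.3, and 67.8 CPM, against at most 10.3 CPM), LINC01405 (12.1, 26.3, and 80.7 CPM), and TMEM132D-AS1 (17.3, 17.96, and 20.8 CPM) followed. C1S, highest in T98G, was lowest here (0.20 to 0.33 CPM). CACNA1C, the pore subunit of an L-type calcium channel, was at 0 to 0.13 CPM, against 20.3 to 21.95 CPM in U87MG, 15.7 to 17.5 CPM in T98G, and 0.32 to 1.27 CPM in U251MG. MGST1, a microsomal glutathione transferase among the most abundant members, stood at 42.8, 52.4, and 97.9 CPM against 352 to 1076 CPM, and P2RX7, an ATP-gated channel, at 0.06 to 0.33 CPM against 2.41 to 26.1 CPM. LINC00942, with 0 tags here, held at most 0.23 CPM in “Vec” of U87MG and 0.32 CPM in “Vec” of U251MG, and was high in T98G alone. Of the “Vec” values of U87MG and U251MG only the 0.32 CPM, in replicate 1 of U251MG, exceeded 3 tags (0.24 CPM in that library). These 40 differences were chosen for passing the test (limma) without overlap of the 3 libraries of the line with the 9 of the others. Passing and lack of overlap are thus part of the choice and no further result. Their adjusted p ranged from 2.694e-18 to 3.175e-05. For LINC00942 in DBTRG-05MG the lack of overlap rests on differences below the floor. Of the 616 members, 414 overlap a gene on the opposite strand and 222 one on the same strand. CACNA1C overlaps 9 and 4 such genes and CHFR 4 and 4. Whether tags were counted by strand is not given in the sources used here, so values of overlapping genes are uncertain.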

How the data were processed

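CAGE-Seq was performed on 24 libraries, 3 per variant of each line. Per the study's methods, the authors aligned reads to hg38 with STAR and counted tags with SAMtools in R, and the values are deposited as CPM (counts of tags scaled to 1 common total per library). Every deposited CPM value was a whole multiple of what 1 tag is worth (100.0% of values, tolerance 0.001), so tags were recovered for alternatives. Depth was 10756072 to 16953689 tags per library (median 14584829), and the floor for a value of 0 was 3 tags. Deposited tables of single libraries repeat these values and were not used.

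Genes were placed by Ensembl identifier with GENCODE 44 (hg38). The annotation version of the deposited table is not given in the sources used here. CPM were scaled by TMM without weights (30% and 5% trims) and taken as log2(CPM + 0.5), so fold changes of low genes are understated. One limma model over all 8 groups (16 residual degrees of freedom, trend, Benjamini-Hochberg over 12327 genes, threshold 0.05) gave log2FC with SE for “WWOX” versus “Vec” in each line, for the “Vec” of each line against the mean of the others, and for DBTRG-05MG minus the mean of the other lines, 9 comparisons in all. Overlap of libraries was read on the scaled values. The script was tested on simulated data. Members, lists, and comparisons were chosen with earlier results of these data known.

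Named genes were the 5 largest rises and falls per line that passed without overlap. Between “Vec” libraries they were the 5 highest and lowest per line, again only among members that passed without overlap. Also named were ARF3 and the 3 largest each way that passed for DBTRG-05MG minus the others. Called list members (up to 4 per list) and genes at the edge of the threshold were named too. Further genes that passed are named from the counts. Alternatives were 12 settings, 24 fits with 1 library left out, and 2 sets of members chosen after seeing the data. R 4.3.3, limma 3.58.1, edgeR 4.0.16, and DESeq2 1.42.0 were used. An item withheld for evaluation is not reported here.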

Additional observations from a re-analysis of the deposited data

Results flagged for a closer look

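The effect of WWOX in DBTRG-05MG differed from the mean effect of the other lines in 3 members by the test of the difference itself (limma, adjusted p under 0.05). LINC02381 differed by −2.10 on the log2 scale, with a fall in DBTRG-05MG and T98G and a rise in U87MG. TBX3 differed by −1.90, with a rise in U87MG. CABP1 differed by 1.37, with a fall in U87MG from a level that the other lines did not reach. It became a member only through “Vec” of U87MG, so its difference is partly a matter of selection. Causes of these differences were not tested.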

How the results depend on the processing

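The count of members called was the least stable value. Counts of members called under alternatives, here and above, stand without the share of all genes and describe stability only. For U87MG (16) it was 8 with genes at a mean of at least 5 CPM, 9 with a separate model per line, and 6 to 23 with 1 library left out. For T98G (6) it was 0 with a separate model, 12 with DESeq2, 10 with the correction for GC content and length, and 1 to 19 with 1 library left out. For U251MG (1) it was 0 with a pseudocount of 0.1, without a filter, with a mean of at least 5 CPM, with a separate model, with the replicate block, with edgeR, and with limma-voom, 5 with DESeq2, 6 with the GC and length correction, and 0 to 22 with 1 library left out. For DBTRG-05MG (3) it was 0 with a separate model, 1 with edgeR, 6 with DESeq2, 6 with the GC and length correction, and 1 to 6 with 1 library left out. For DBTRG-05MG minus the others (3) it was 5 with a pseudocount of 1 and 3 to 6 with 1 library left out. The cause was not tested. With members at 5 CPM or more in every library, chosen after seeing the data, the median for “WWOX” versus “Vec” was −0.251 in DBTRG-05MG, 0.0699 in T98G, and −0.0701 in U251MG. Between “Vec” libraries it was 0.052 in T98G and 0.314 in DBTRG-05MG. With 1 library left out, the median ranged from −0.0538 to 0.0437 in U251MG, from −0.23 to −0.17 in DBTRG-05MG, and from −0.0829 to −0.0059 for “Vec” of T98G. Across the settings 19 counts moved by over 1.5 times and 84 did not, and 5 medians moved by over 0.0455 (the SD of the level between replicates) and 116 did not. With 1 library left out, 32 counts and 3 medians moved and 184 and 213 did not. Named genes called for “WWOX” versus “Vec” or for DBTRG-05MG minus the others kept their call in 230 of 290 values under the settings and lost it in 60, and lost it in 80 of 600 with 1 library left out. Named differences between “Vec” libraries lost none of 432 and 960 such values, and no named gene reversed.

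The replicate numbers did not pair the samples: same-numbered “Vec” and “WWOX” libraries deviated with r from −0.55 to 0.51, and the labels give no shared batch. Differently numbered libraries of a line gave r from −0.63 (T98G) to 0.70 (U251MG). In DBTRG-05MG r was 0.64 for “Vec” 1 with “WWOX” 3, 0.61 for 2 with 1, and 0.63 for 3 with 2, and negative for the remaining pairs. Whether libraries were paired under other numbers was not tested, and the replicate block used the numbers as labeled. With the replicate block, 3 members passed in DBTRG-05MG, 0 in U251MG, 4 in T98G, and 16 in U87MG. With 3 libraries per group, small differences of single genes stay under the threshold, and values under 3 tags per library cannot be told from 0.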
